A study of Gossypium hirsutum with 6 samples.

Results

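The 4 transcripts described here are comp34546_c0_seq3, comp26230_c0_seq1, comp42588_c0_seq8 and comp27391_c0_seq1, of 156846 assembled transcripts of upland cotton (Gossypium hirsutum). They were taken by name from the target tables of the study, which annotate each as a plant myb proto-oncogene protein and predict that each is cleaved. There, comp34546_c0_seq3 and comp26230_c0_seq1 are predicted targets of miR828, and comp42588_c0_seq8 and comp27391_c0_seq1 of miR159. The mRNA came from stem apexes harvested at the fifth true leaf stage. A1 denotes Ari1327, a dwarf mutant. A3 denotes Ari3697, a mutant with tall culms, and A9 denotes Ari971, the wild type from which both were raised by gamma-ray irradiation. All 3 lines grew in pots in a greenhouse. There was 1 mRNA library per line, so each mutant is represented by 1 line and no value has a replicate error. The number of plants behind a library is not given in the sources used here. The labels and methods speak of equal amounts of RNA from the lines being pooled, while the genotype label gives each library to 1 line. Here the genotype labels were followed.

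MYB proteins are transcription factors that bind DNA through conserved MYB repeats, and plants carry a large family of them with roles in cell fate, secondary metabolism and hormone responses. miR828 and the related miR858 pair with sequence that encodes the conserved MYB repeats, and in Arabidopsis miR828 acts on MYB genes of pigment and trichome pathways. miR159 pairs with a site shared by GAMYB-like genes, which act in gibberellin responses, and in Arabidopsis it keeps these genes low in vegetative tissue. Gibberellin is a main hormone of stem elongation. A plant miRNA of this kind can direct cleavage of the mRNA it pairs with. The comparisons here ask whether the mRNA of the predicted targets stood at different levels in the dwarf and the tall-culm mutant, and in each mutant against the wild type.

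The sequences below are shown because they carry the predicted pairing of the members. They come from the duplexes that the study lists for 2 of the members. The study obtained these with the program PAREsnip, which searched a separate degradome data set for cleavage sites. No such duplex was found for the other 2 members in the sources used here. They are written 5′ to 3′ with T for U. Capitals mark bases 2 to 8 of each miRNA, its seed, and in the target site the bases that face them. For comp42588_c0_seq8 the table lists 7 duplexes.
ath-miR159a: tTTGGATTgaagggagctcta
ath-miR159c: tTTGGATTgaagggagctcct
osa-miR159f: cTTGGATTgaagggagctcta
aqc-miR159: tTTGGACTgaagggagctcta
pta-miR159a: tTGGATTGaagggagctcca
ath-miR319a: tTGGACTGaagggagctccct
ptc-miR319e: tTGGACTGaagggagctcct
comp42588_c0_seq8 site facing ath-miR159a: tggagctcccttcACTCCAAt

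The 7 miRNAs have 4 different seeds. ath-miR159a, ath-miR159c and osa-miR159f share one, ath-miR319a and ptc-miR319e share another, and aqc-miR159 and pta-miR159a have 1 each. pta-miR159a and the miR319 sequences begin 1 base further along the same stretch, so the 7 sequences lie over 1 region of comp42588_c0_seq8. ath-miR159a formed 18 Watson-Crick pairs and 1 G-T pair over its 21 bases. Across all 7 duplexes the Watson-Crick pairs numbered 18 to 19, and 6 of the 7 seed bases were paired in each. The tables also list comp27391_c0_seq1 under pta-miR159a.

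For comp34546_c0_seq3 the table lists a duplex with miR858, a second MYB-directed miRNA.
ath-miR858b: tTCGTTGTctgttcgaccttg
comp34546_c0_seq3 site facing ath-miR858b: cagggcgaacagACAATGAa

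This duplex held 18 Watson-Crick pairs and 2 G-T pairs, with 1 base of the miRNA left without a partner. comp34546_c0_seq3 is thus listed under both miR828 and miR858. The sequences of miR828 and of the sites in comp26230_c0_seq1 and comp27391_c0_seq1 were not used here.

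The values are RPKM, reads scaled by transcript length and by the number of mapped reads, deposited to 2 decimals without read numbers. The RPKM summed to between 798674 and 805778 per library and the median transcript stood between 1.55 and 1.60. RPKM times transcript length fell on whole multiples of a constant in each library. The constants correspond to 13797861 reads in A1, 13481631 reads in A3 and 15065913 reads in A9. Values were checked where the multiple was low enough for 2 decimals to resolve it. Among transcripts that are alone in their assembly component, 150 of 154 of these fell within 0.1 of a whole multiple, or 97.4%. In components of several transcripts 11 of 21 did, or 52.4%. The 6 values of comp26230_c0_seq1 and comp27391_c0_seq1, which are alone in their components, all fell on a whole multiple within 0.1 plus the rounding of the files, which leaves a wide margin for comp27391_c0_seq1. Of the 6 values of comp34546_c0_seq3 and comp42588_c0_seq8, which are not alone, 2 did. The inferred reads of comp34546_c0_seq3 and comp42588_c0_seq8 were therefore rounded, and their intervals are approximate. That 1 multiple is 1 read was inferred and not observed. All 95% intervals below are exact intervals on inferred reads that cover counting error only. They compare libraries and say nothing of variation between plants of a line. Whether the apexes held fewer cells with a transcript, or less of it per cell, cannot be told apart in such RNA. The transcripts carry no gene names beyond the target tables, so the tissue was not checked against marker genes.

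None of the 4 MYB transcripts differed by 2-fold between A1 and A3, between A1 and A9, or between A3 and A9. Over all transcripts, the share past 2-fold in either direction was 19.3% for A1 against A3, 21.1% for A1 against A9 and 19.5% for A3 against A9. Among the 86591 transcripts with a mean of 1 to 10 RPKM over the libraries, a range chosen after the members' values were seen because it holds all 4, the shares were 12.0%, 14.2% and 12.6%. A count of 0 of 4 does not set the members apart from these shares. Against A9, 3 of the 4 had a lower value in A1 and 2 of the 4 in A3, where 50.7% and 47.8% of the transcripts of that range did. Between the mutants, 3 of the 4 had a lower value in A1 than in A3, against 52.8% of the same transcripts. The median log2 ratio of the 4 was -0.26 for A1 over A3, where the median of all transcripts was -0.03. It was -0.35 against 0 for A1 over A9, and 0.01 against 0.02 for A3 over A9.

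**Figure D1:**
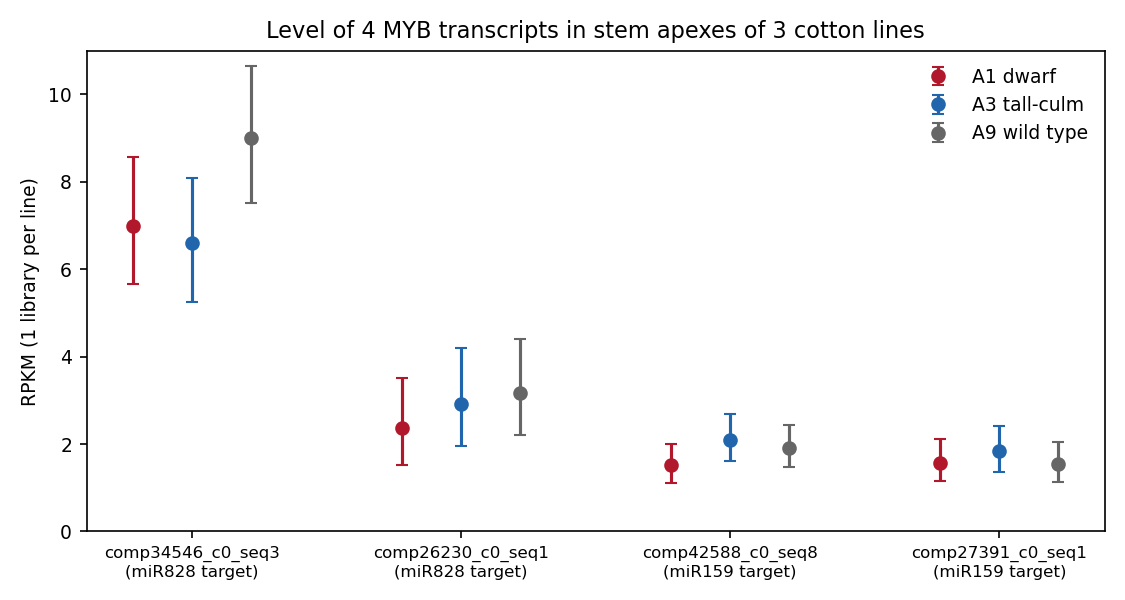
RPKM of the 4 MYB transcripts (vertical axis) in the libraries of A1, A3 and A9, as points with 95% exact counting intervals on inferred reads. comp34546_c0_seq3 stands at 6.60 to 9.01 RPKM, and the other 3 lie between 1.51 and 3.16 RPKM, with intervals that overlap between lines for each transcript.

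comp34546_c0_seq3, listed for miR828 and miR858, was the most abundant of the 4 per length. It had 6.99 RPKM in A1, 6.60 RPKM in A3 and 9.01 RPKM in A9. These values lie above 85.5%, 84.7% and 89.2% of all transcripts in their libraries. Both mutants were lower than the wild type and close to each other. They correspond to about 95, 87 and 133 inferred reads.

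The log2 ratio of comp34546_c0_seq3 was 0.08 for A1 over A3, with an interval from -0.34 to 0.53, so the mutants did not differ beyond counting error. For A1 over A9 the log2 ratio was -0.37, with an interval from -0.75 to 0.03 that just includes 0. For A3 over A9 it was -0.45, with an interval from -0.86 to -0.05. This was the only one of the 12 ratios whose interval left out 0, with no correction for their number. The interval is approximate, since the inferred reads of comp34546_c0_seq3 were not whole and were rounded. The A3 level was 0.733 times the A9 level, with an interval from 0.551 to 0.965 times. A log2 ratio as low as that of A3 over A9 or lower was found in 18.6% of all transcripts.

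comp26230_c0_seq1, the second miR828 target, had 2.36 RPKM in A1, 2.92 RPKM in A3 and 3.16 RPKM in A9. A1 was lowest and A9 highest, with steps that are small against the counting error. The inferred reads were 24, 29 and 35, the fewest of the 4 transcripts. The interval of its A1 level ran from 1.52 to 3.52 RPKM and that of its A9 level from 2.20 to 4.40 RPKM. The log2 ratio was -0.31 for A1 over A3, with an interval from -1.15 to 0.52. It was -0.42 for A1 over A9, from -1.23 to 0.37, and -0.11 for A3 over A9, from -0.87 to 0.64. At this depth no difference between the lines was detectable, and the intervals of both A1 ratios extend beyond 2-fold lower.

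Both miR828 targets thus had lower values in each mutant than in A9, an order that 35.2% of transcripts with a mean of 1 to 10 RPKM also had. They took different places among the mutants, since A3 was lowest for comp34546_c0_seq3 and A1 was lowest for comp26230_c0_seq1. Neither of these places between A1 and A3 stood beyond counting error.

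comp42588_c0_seq8, the miR159 target whose site is printed above, had 1.51 RPKM in A1, 2.10 RPKM in A3 and 1.91 RPKM in A9. A1 was the lowest line, as it was for 36.1% of transcripts with a mean of 1 to 10 RPKM, and A3 and A9 lay close together. The inferred reads were 46, 63 and 64. For A1 over A3 the log2 ratio was -0.48, the widest gap between the mutants among the 4 transcripts, with an interval from -1.07 to 0.08. The A1 level was 0.719 times the A3 level. The log2 ratio was -0.34 for A1 over A9, with an interval from -0.93 to 0.22. It was 0.14 for A3 over A9, from -0.39 to 0.66. All of these intervals include 0.

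comp27391_c0_seq1, the other miR159 target, had 1.57 RPKM in A1, 1.83 RPKM in A3 and 1.54 RPKM in A9, from 44, 50 and 47 inferred reads. A3 was highest, and A1 and A9 were nearly equal. The log2 ratio was -0.22 for A1 over A3, with an interval from -0.84 to 0.40. It was 0.03 for A1 over A9, from -0.60 to 0.66, and 0.25 for A3 over A9, from -0.35 to 0.86. These intervals leave room for a change of about 1.5-fold in either direction between A1 and A9.

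A3 was thus the highest line for both miR159 targets, as it was for 31.8% of transcripts with a mean of 1 to 10 RPKM. Neither was past counting error. Per length, the order of RPKM within each line was comp34546_c0_seq3, comp26230_c0_seq1 and then the miR159 targets. The interval of comp34546_c0_seq3 lay above those of the other 3 in every line. That of comp26230_c0_seq1 overlapped the intervals of the miR159 targets in A1 and A3, and in A9 that of comp42588_c0_seq8. In A1 the last 2 stood at 1.51 RPKM for comp42588_c0_seq8 and 1.57 RPKM for comp27391_c0_seq1, within counting error of each other. In A3 and A9 comp42588_c0_seq8 was the higher one, again with overlapping intervals.

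**Figure D2:**
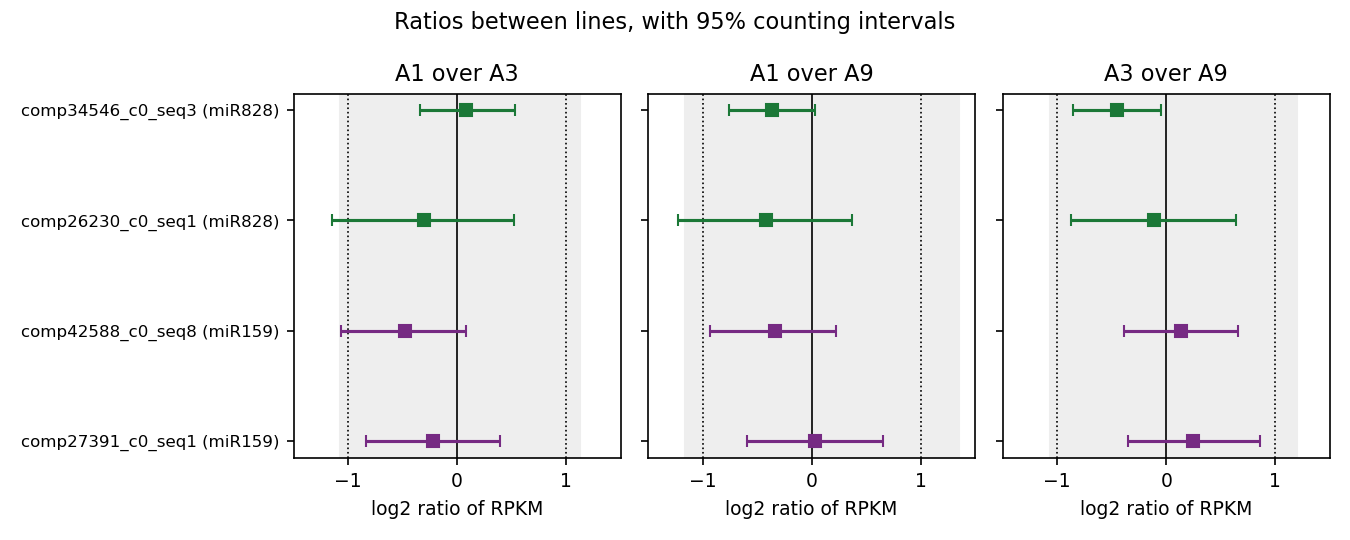
Log2 ratios of RPKM (horizontal axis) of the 4 MYB transcripts for A1 over A3, A1 over A9 and A3 over A9, with 95% counting intervals. Green squares are the miR828 targets and purple squares the miR159 targets, dotted lines mark 2-fold, and the grey band runs between the 5 and 95 percentiles of transcripts with a mean of 1 to 10 RPKM. Only comp34546_c0_seq3 for A3 over A9, at -0.45, has an interval that leaves out 0, and this interval is approximate.

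The assembly groups transcripts that share sequence into components. In a tetraploid such as upland cotton, a component can hold splice forms, allelic or homoeologous copies, and its transcripts can share reads. comp26230_c0 and comp27391_c0 hold 1 transcript each, so their sums and shares are those of the member alone. comp34546_c0 holds 4 transcripts and comp42588_c0 holds 12.

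In comp34546_c0 the member had a near twin, comp34546_c0_seq1, with 6.99 RPKM in A1, 6.74 RPKM in A3 and 9.25 RPKM in A9. The values of the twins were equal in A1 to the 2 decimals given. comp34546_c0_seq2 had 4.21 RPKM in A1, 4.54 RPKM in A3 and 5.35 RPKM in A9, and comp34546_c0_seq4 had 4.30, 4.45 and 5.20 RPKM in the same lines. The 4 transcripts therefore formed a higher and a lower pair, and A9 was the highest line for each of them.

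Summed over comp34546_c0, A1 had 22.5 RPKM, A3 had 22.3 RPKM and A9 had 28.8 RPKM. The log2 ratio of the sums was 0.01 for A1 over A3, -0.36 for A1 over A9 and -0.37 for A3 over A9. The member took 31.1% of the sum in A1, 29.6% in A3 and 31.3% in A9. Its share moved by at most 1.72 percentage points between lines, and all 4 transcripts had lower values in both mutants than in A9. Reads that match several transcripts may be divided among them, so a steady share cannot show that each transcript changed. The sums carry no counting interval. The 4 transcripts ranged from -0.40 to -0.27 for A1 over A9 and from -0.46 to -0.22 for A3 over A9. Since they can share reads, they are not 4 independent observations. Of the 6868 components with 4 or more transcripts, 10.2% had every transcript lower in both mutants than in A9.

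In comp42588_c0 all 12 transcripts were lower in A1 than in A9, and 11 of the 12 were lower in A1 than in A3. None was past 2-fold in any comparison. Every transcript was lower in A1 than in A9 in 9.09% of the 2509 components with 10 or more transcripts. A1 had 14.5 RPKM in all, A3 had 17.6 RPKM and A9 had 19.2 RPKM. The log2 ratio of these sums was -0.28 for A1 over A3, -0.41 for A1 over A9 and -0.12 for A3 over A9.

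The member comp42588_c0_seq8 took 10.4% of this sum in A1, 12.0% in A3 and 9.97% in A9. By RPKM it ranked 5 among the 12 transcripts in A1, 2 in A3 and 4 in A9. Against A9 the member was higher in A3 while the sum was lower, so the member and its component point in different directions there, both within the counting error of the member. Without the member, the other 11 transcripts gave a log2 ratio of -0.16 for A3 over A9.

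The widest gaps between A1 and the other lines in this component were in low transcripts. comp42588_c0_seq12 had 0.69 RPKM in A1, 1.18 RPKM in A3 and 1.20 RPKM in A9, log2 ratios of -0.77 for A1 over A3 and -0.80 for A1 over A9. comp42588_c0_seq1 had 0.72 RPKM in A1, 1.11 RPKM in A3 and 1.24 RPKM in A9. comp42588_c0_seq2 had 0.77 RPKM in A1, 1.12 RPKM in A3 and 1.21 RPKM in A9. In these 3, A3 stood near A9 and A1 alone was low.

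comp42588_c0_seq9 had the same order, with 1.73 RPKM in A1, 2.38 RPKM in A3 and 2.53 RPKM in A9. comp42588_c0_seq3 had 0.84 RPKM in A1, 0.97 RPKM in A3 and 1.10 RPKM in A9. comp42588_c0_seq5 had 1.76 RPKM in A1, 1.92 RPKM in A3 and 2.30 RPKM in A9. Here A3 lay between the other lines. comp42588_c0_seq10 likewise had 0.91 RPKM in A1, 0.99 RPKM in A3 and 1.07 RPKM in A9.

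comp42588_c0_seq4 was the exception between the mutants. It had 1.95 RPKM in A1, 1.72 RPKM in A3 and 2.69 RPKM in A9, and it took 13.5% of the component sum in A1, 9.79% in A3 and 14.0% in A9. It was the most abundant transcript of the component in A1 and A9, and its log2 ratio of -0.65 was the lowest of the 12 for A3 over A9.

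The transcripts that were higher in A3 than in A9 were the member and 3 others. comp42588_c0_seq6 had 1.55 RPKM in A1, 1.71 RPKM in A3 and 1.66 RPKM in A9. comp42588_c0_seq7 had 1.20 RPKM in A1, 1.34 RPKM in A3 and 1.26 RPKM in A9. comp42588_c0_seq11 had 0.83 RPKM in A1, 1.03 RPKM in A3 and 0.99 RPKM in A9. Their log2 ratios for A3 over A9 were 0.04, 0.09 and 0.06, so the member, at 0.14, had the highest of the 12. No lengths of these transcripts were used, so the reads behind them were not inferred.

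**Figure D3:**
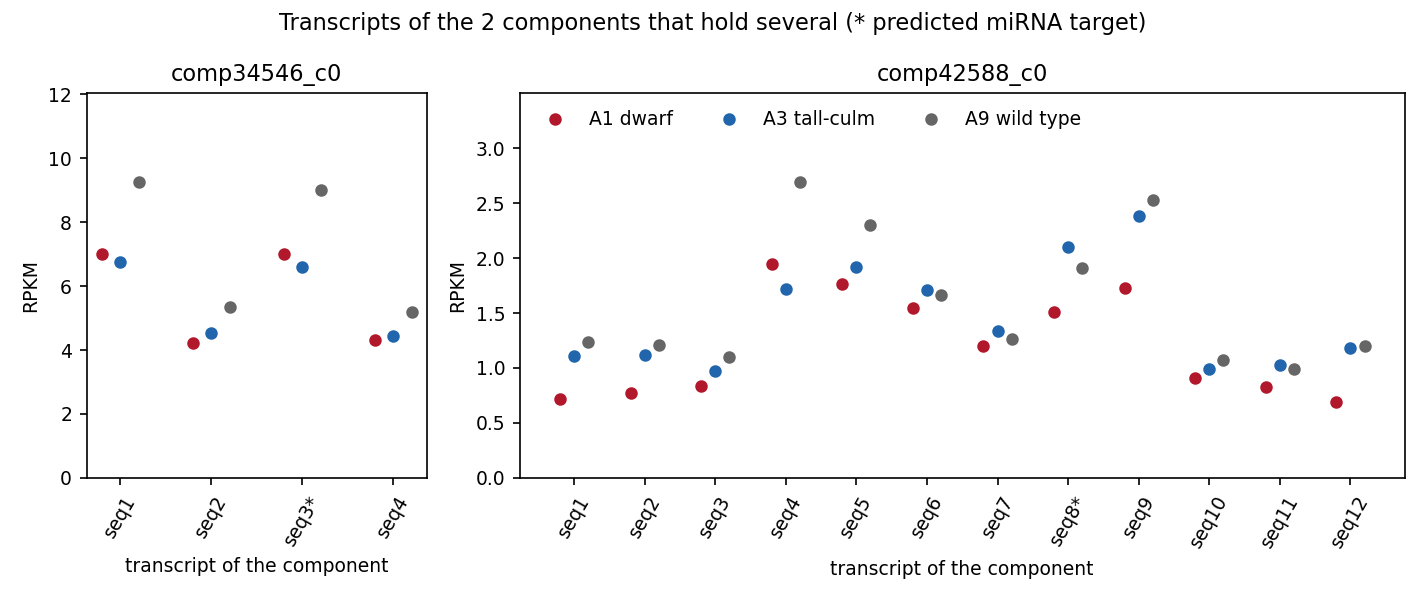
RPKM (vertical axis) of each transcript of comp34546_c0 (left) and comp42588_c0 (right) in A1, A3 and A9, with 1 point per library and an asterisk at the member. All points of comp34546_c0 are highest in A9, and A1 is the lowest line in 11 of the 12 transcripts of comp42588_c0.

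The target tables call 2 further transcripts myb, both under miR858. comp39508_c0_seq13 had 3.88 RPKM in A1, 1.56 RPKM in A3 and 2.59 RPKM in A9. Its log2 ratio of 1.31 for A1 over A3 was past 2-fold, while its ratios of 0.58 for A1 over A9 and -0.73 for A3 over A9 were not. comp285359_c0_seq1 was low, with 0.20 RPKM in A1, 0.82 RPKM in A3 and 1.10 RPKM in A9. For A1 over A3 its log2 ratio was -2.04 and for A1 over A9 it was -2.46. These ratios rest on low values and carry no counting interval. The study also measured comp285359_c0_seq1 by qRT-PCR with biological replicates. It reports a lower level in A1 than in A9, and no significant change between A3 and A9. Between A1 and A3, 2 of the 2 further myb transcripts were past 2-fold, beside 19.3% of all transcripts. Only 1 had at least 1 RPKM in both libraries, and 0 remained past 2-fold with 1 added to every RPKM.

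Among the other 6 predicted targets of miR828, 1 was past 2-fold between A1 and A3, beside 19.3% of all transcripts, and the median log2 ratio was -0.05. This was comp33506_c0_seq1, without a product name in the tables, with 4.86 RPKM in A1, 1.11 RPKM in A3 and 0.61 RPKM in A9. It was higher in A1 than in A9, while both MYB targets of the same miRNA had lower values in A1 than in A9. The most abundant was comp38613_c0_seq1, at 188 RPKM in A1, 194 RPKM in A3 and 249 RPKM in A9.

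None of the remaining targets of miR828 was past 2-fold between the mutants. The widest gap among them was a log2 ratio of -0.43 for A1 over A3, in comp34763_c0_seq1, without a counting interval. comp34763_c0_seq1 had 5.04 RPKM in A1, 6.77 RPKM in A3 and 7.90 RPKM in A9, which is the order of comp26230_c0_seq1. The transcript for MAT1, an assembly factor of the CDK-activating kinase, comp37997_c0_seq3, had 1.69 RPKM in A1, 1.74 RPKM in A3 and 1.65 RPKM in A9. The glutathione S-transferase transcript comp45618_c0_seq9, of a family of detoxifying enzymes, had 3.34 RPKM in A1, 2.87 RPKM in A3 and 3.58 RPKM in A9. comp40723_c0_seq6 had 1.53 RPKM in A1, 1.73 RPKM in A3 and 1.25 RPKM in A9. For A1 over A9, 1 of the 6 was past 2-fold, beside 21.1% of all transcripts, and it was below 1 RPKM in A9. For A3 over A9 there were 0, beside 19.5% of all transcripts.

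The tables list 39 predicted targets of the miR159 family besides the MYB transcripts. Between A1 and A3, 3 of the 39 were at least 2-fold higher and 2 at least 2-fold lower in A1. Together these are 12.8% of the list, beside 19.3% of all transcripts and 12.0% of those with a mean of 1 to 10 RPKM. For A1 against A9 the counts were 5 higher and 2 lower, or 17.9%, beside 21.1% and 14.2%. For A3 against A9 they were 4 higher and 2 lower, or 15.4%, beside 19.5% and 12.6%. The median log2 ratio was -0.15 for A1 over A3, 0.06 for A1 over A9 and 0.10 for A3 over A9, where the medians of all transcripts were -0.03, 0 and 0.02.

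Most of these differences were in transcripts below 1 RPKM. With at least 1 RPKM in both libraries, only comp31806_c0_seq2 was past 2-fold between the mutants, with 7.18 RPKM in A1 and 3.39 RPKM in A3. Its level in A9 was 4.52 RPKM. With 1 added to every RPKM, 0 of the 39 were past 2-fold between the mutants. Against the wild type, comp26811_c0_seq1 was the only one past 2-fold with at least 1 RPKM in both libraries. It had 2.43 RPKM in A1, 2.34 RPKM in A3 and 1.05 RPKM in A9, the last close to the minimum of 1 RPKM. With 1 added to every RPKM, 2 of the 39 were past 2-fold for A1 against A9 and 1 for A3 against A9. comp26811_c0_seq1 was not among them. Neither comp31806_c0_seq2 nor comp26811_c0_seq1 carries a product name in the tables.

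**Figure D4:**
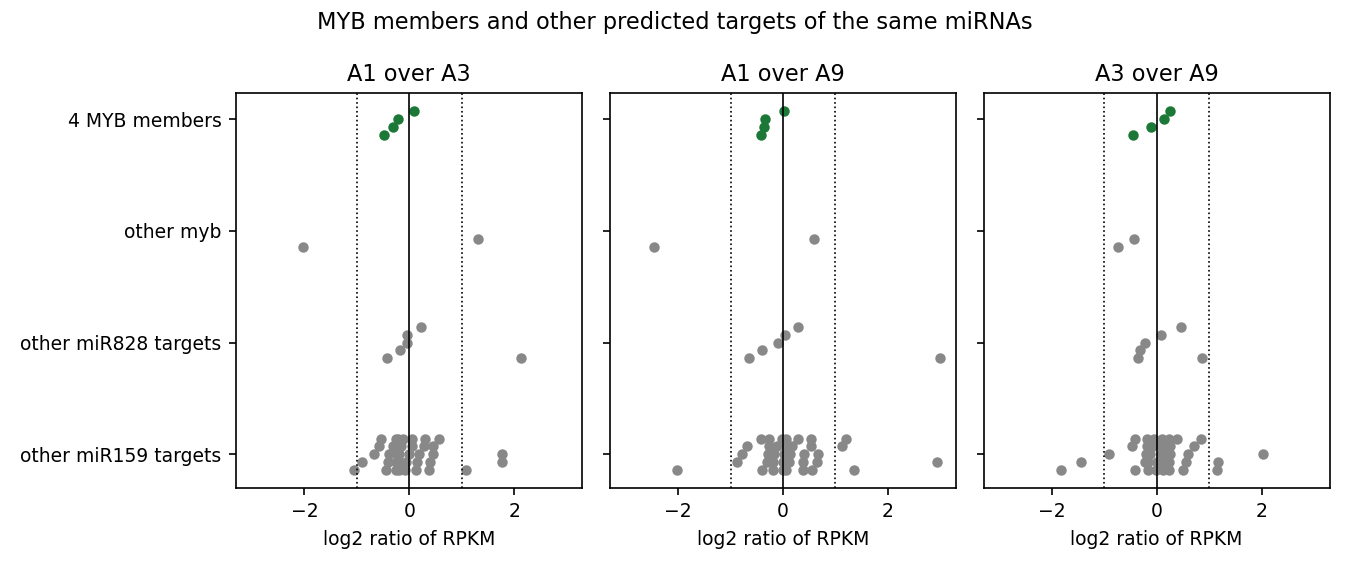
Log2 ratios of RPKM (horizontal axis) of the 4 MYB transcripts (green) and of the other predicted targets (grey), by list, for A1 over A3, A1 over A9 and A3 over A9. Dotted lines mark 2-fold, and transcripts listed at 0 RPKM in either library are not drawn. The 4 MYB transcripts all lie within the dotted lines, from -0.48 to 0.08 for A1 over A3.

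Likeness of pattern was measured as the distance between transcripts in the log2 ratios of A1 over A9 and A3 over A9, over 3 libraries. The 130 annotated transcripts of the target tables with at least 1 RPKM in each library were searched. Nearest to comp34546_c0_seq3 were arogenate dehydrogenase comp40610_c0_seq1, an enzyme of tyrosine synthesis, at a distance of 0.11, and alpha-glucosidase comp44744_c0_seq1 at 0.13. Near comp26230_c0_seq1 lay the RNA helicase transcript comp46993_c0_seq4, at 0.10. For comp42588_c0_seq8 they were the homeobox-leucine zipper transcript comp45076_c0_seq1, at 0.15, and the phospholipase C transcript comp42931_c0_seq5, itself a listed miR159 target, at 0.16. For comp27391_c0_seq1 they were comp46685_c0_seq6 for Dicer, the enzyme that cuts miRNAs from their precursors, at 0.04, and the ABA responsive element binding factor comp30734_c0_seq3, also at 0.04.

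Such likeness was common. Between 980 and 2405 of the 84098 transcripts that reached 1 RPKM in each library lay within 0.1 of a member, the fewest for comp42588_c0_seq8 and the most for comp27391_c0_seq1. Both ratios share the A9 library, so a single value there moves both.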

How the data were processed

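Per the study's methods, the authors trimmed and filtered the reads and assembled them de novo with Trinity. The deposited data give RPKM for each transcript in a file per line, to 2 decimals. The read mapper and the treatment of reads that match several transcripts are not given in the sources used here. Predicted targets and duplex sequences were taken from the target tables of the study, and the 3 libraries of small RNA were not analysed here. The members and lists were chosen with earlier results of these data known.

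A log2 ratio of RPKM was computed for each of the 156846 transcripts and each of 3 comparisons, with 0 replaced by 0.001, and a transcript counted as past 2-fold where the ratio was 1 or more, or -1 or less. With 1 library per line no test between lines was made. The constant per library was searched over the 259 transcripts whose length the target tables give, using multiples below 15 and a tolerance of 0.1. RPKM, length and constant gave the inferred reads of the members, from 24 to 133. Reads were rounded, and 95% intervals are exact (Poisson for a level, Clopper-Pearson for the share of the reads of 2 libraries). Reads are not independent molecules, so the intervals cover counting error only.

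Transcripts named are the 4 members, those of their components with at least 0.5 RPKM in a library, the other myb and miR828 entries, miR159 entries past 2-fold with at least 1 RPKM in both libraries, and the 2 annotated transcripts nearest in pattern. A result for 1 transcript of the last kind was left out. Alternatives were 0.1 or 1 added to RPKM, a minimum of 1 RPKM, scaling by the median ratio or the upper quartile, a 1.5-fold threshold, sums over the component, and 0.5 times the constant as 1 read. The scripts were tested on simulated data. For the 2-fold calls, 4-fold changes were planted in 200 transcripts at 10 RPKM or more, and 200 were recovered. Smaller changes, and levels as low as those of the members, were not tried for these calls. The software was matplotlib 3.10.9, numpy 2.4.6, scipy 1.17.1, pandas 2.3.3 and Python 3.11.15.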

Additional observations from a re-analysis of the deposited data

Results flagged for a closer look

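comp42588_c0_seq8 stood on opposite sides of the wild type in the mutants, at 1.51 RPKM in A1 and 2.10 RPKM in A3, against 1.91 RPKM in A9. The log2 ratio of A1 over A3 was -0.48. The difference between the mutants was not tested, since there was 1 library per line, and its counting interval includes 0. In the sum over its component both mutants were below A9.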

How the results depend on the processing

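No paired analysis was possible because each line has a single library, and for the same reason no library could be left out. The count of members past 2-fold was 0 in all 3 comparisons under the 18 alternatives run, a 1.5-fold threshold among them. Each of the 12 log2 ratios of members stayed inside its counting interval under all 60 alternatives. This says little, since the intervals were wide and the scaling factors ran only from 0.991 to 1.007. For comp26230_c0_seq1 and comp27391_c0_seq1 the component sum is the member itself. The sign changed in 1 of the 60, since comp42588_c0_seq8 had a ratio of 0.14 for A3 over A9 alone and -0.12 summed over its component. With 0.5 times the constant taken as 1 read, 2 further intervals left out 0, and their bounds nearest to 0 were -0.0735 for comp42588_c0_seq8 in A1 against A3 and -0.0902 for comp34546_c0_seq3 in A1 against A9. The counts past 2-fold among the other miR159 targets depended on low values: 5, 7 and 6 in A1 against A3, A1 against A9 and A3 against A9 became 1 in each with at least 1 RPKM in both libraries, and 0, 2 and 1 with 1 added to every RPKM. Among the other miR828 targets, the count of 1 for A1 against A9 became 0 with at least 1 RPKM. Among the other myb transcripts, the count of 2 for A1 against A3 became 1 with at least 1 RPKM and 0 with 1 added, and that of 1 for A1 against A9 became 0 under both. With 24 to 133 inferred reads per member, the median half-width of the intervals was 0.60 on the log2 scale for A1 over A3, which limits what differences could be seen.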
